A study of Rattus norvegicus with 22 samples.

Results

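The genes described here encode the proteins of the cytosolic ribosome in kidneys of PKD/Mhm (Cy/+) rats. They were chosen by symbol: Rpl or Rps followed by a number with at most 1 letter of a, x, y or l, plus Rplp0, Rplp1, Rplp2 and Rpsa, with a mean estimated count of 10 or more over the 22 rats. Of the 17334 genes listed per rat, 77 had such a symbol and 76 reached that count. They comprise 42 proteins of the large subunit, 30 of the small subunit, the 3 P stalk proteins and 1 paralog, Rps27l. Just above the count limit stood Rpl10a with a mean of 19.1 estimated counts, Rpl8 with 44.8 and Rpl38 with 88.5, and just below it stood Rpl3l with 2.95. Fau and Rack1, which also give ribosomal proteins, fall outside the symbol rule and are given separately, and the core genes Rpl37 and Rps9 matched no identifier and were not analysed here.

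The study asked whether repeated cell therapy changes gene expression in polycystic kidneys. All 22 rats were males of the PKD/Mhm (Cy/+) strain, heterozygous for a missense mutation of Anks6, and were 8 months old at kidney removal. They fall into 6 untreated rats, 6 given human adipose-derived stromal cells intraperitoneally (i.p. ASC), 6 given these cells intravenously (i.v. ASC) and 4 given conditioned medium (CM), each monthly over 6 months. The label of the CM rats gives no route and does not name the cells the medium came from, the study's descriptions give different routes, and no rat without cysts was analysed here. RNA came from bulk tissue of the left kidney. The total of estimated counts per rat ran from 12195682 to 14734772.

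The ribosome is assembled from ribosomal RNA and a set of proteins of which it carries a single copy each, except for the stalk proteins Rplp1 and Rplp2. The stalk recruits the factors that drive elongation. Most of these genes have many processed pseudogenes and near-identical copies, so short reads from them often fit several genes. Their mRNAs usually start with a C followed by pyrimidines, a feature through which mTORC1 and Larp1 control their translation.

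Some of the annotated starts of these genes carry that feature. RefSeq windows of 250 bases before to 50 bases after the start (assembly GRCr8, another build than the rn6 of the deposited values) were found for 61 of the 76 genes, as 62 windows. A C followed by 4 pyrimidines stood at the first transcribed base in 23 of the 62 windows (37.1%), against 2.63% of all 33469 windows. The ETS-type word CCGGAAG, searched on both strands, was in 30.6% of the members' windows and 8.75% of all windows, and AAGATGGC, the YY1-type word, in 8.06% and 3.17%. These matches are descriptions of letters, not of factor binding. The windows below run from 20 bases before to 10 bases from the annotated start, 5′ to 3′ on the gene's strand, with the first 5 transcribed bases in capitals. They are shown for an abundant P stalk gene, for the most abundant member and for 3 of the members whose counts vary most.
Rplp0, chr12:46718381-46718410, minus strand: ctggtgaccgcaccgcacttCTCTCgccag
Rpl41, chr7:1563488-1563517, minus strand: gaaggggcggctcggaagtgACGACaccaa
Rpl9, chr14:43247570-43247599, plus strand: gtgatgacgaaggacgttctCTCTTtgccc
Rpl38, chr10:100200415-100200444, plus strand: ggaagcttcgttctttttccGTTGTtcggt
Rpl10a, chr20:6390513-6390542, plus strand: tgcgcgaaaccttctgccttCTTTTccggt
Rplp0, Rpl9 and Rpl10a start with the pyrimidine run, whereas the annotated starts of Rpl41 and Rpl38 do not.

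The kidney label was checked first. Umod, made by the thick ascending limb, had a mean of 3615 CPM (counts scaled to the library size with TMM factors), Slc34a1, the phosphate transporter of the proximal tubule, 1422 CPM, and Aqp2, the water channel of the collecting duct, 755 CPM. The levels of cell type markers differed between kidneys: the 10 proximal tubule markers summed to 2225 CPM in untreated rat 1 and to 13531 CPM in i.v. ASC rat 1. All 5 urothelium markers were measured, with Upk1a as the most abundant (0.230 to 152 CPM). They summed to 1.77 to 11.7 CPM in the untreated rats and to 229, 409, 18.8 and 97.3 CPM in i.v. ASC rats 1, 3, 4 and 5. In bulk tissue fewer cells of a type and less RNA per cell cannot be told apart.

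As a block, the ribosomal protein genes made up a large and similar part of the estimated transcripts in every group. In untreated rats their summed TPM (a level per transcript length, scaled to a common total) took 14.4% of the total (SD 1.27, n = 6). The i.p. ASC group had 13.8% (SD 1.87, n = 6), the i.v. ASC group 14.8% (SD 1.89, n = 6) and the CM group 14.03% (SD 0.906, n = 4). In untreated rats the share ran from 13.2% to 16.5% with a median of 14.2%. After i.p. ASC it ran from 12.1% to 17.3% with a median of 13.7%, and after i.v. ASC from 11.3% to 16.7% with a median of 15.1%. The 4 CM rats had 12.7%, 14.7%, 14.5% and 14.2%. The ranges of the groups overlapped throughout, and the highest and the lowest of the 22 rats, i.p. ASC rat 2 and i.v. ASC rat 1, had both received cells. As a share of estimated counts, without the length correction, the block took 4.35% in untreated rats and 4.22%, 4.61% and 4.22% after i.p. ASC, i.v. ASC and CM.

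**Figure D1:**
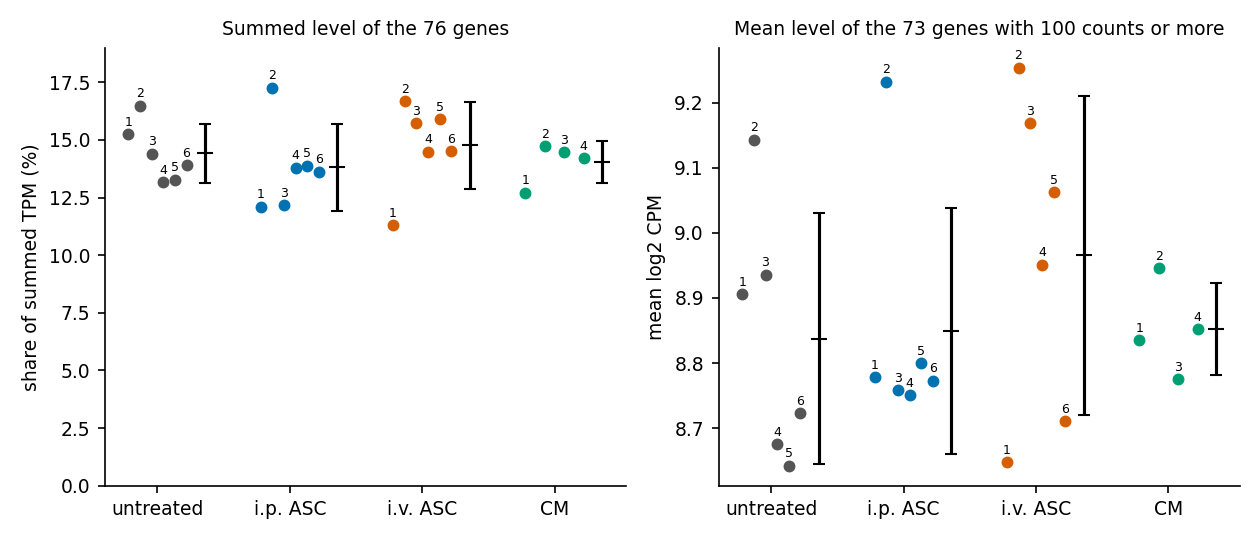
Level of the ribosomal protein genes in each rat. Left, summed TPM of the 76 genes as a percent of all TPM. Right, mean log2 CPM of the 73 genes with a mean of 100 or more counts. Points are rats with their replicate number, and bars give the mean ± SD of each group (n = 6, 6, 6 and 4). The groups overlap, and i.p. ASC rat 2 stands above the other i.p. ASC rats at 17.3% of TPM.

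The members moved together from rat to rat. Relative to the average rat, the median member stood 0.38 higher on the log2 CPM scale in i.p. ASC rat 2, 0.37 in i.v. ASC rat 2, 0.30 in i.v. ASC rat 3 and 0.25 in untreated rat 2. It stood lowest in untreated rat 5, at -0.24, and in i.v. ASC rat 1 and untreated rat 4, both at -0.23. The rats with a high block therefore came from 3 of the 4 groups. Once this shift of the whole block was subtracted, the 51 members with whole estimated counts in every rat kept a median SD of only 0.06 log2 units over the 22 rats, and the largest, of Rps27l, was 0.14. The macrophage markers, 5 of 5 measured and led by C1qa, were also high in some of these rats, at 432 CPM in i.p. ASC rat 2 and 435 CPM in i.v. ASC rat 2 against 250 to 351 CPM in untreated rats. The other rats with a high block did not share this: the markers summed to 193 CPM in i.v. ASC rat 3, below every untreated rat, and to 299.5 CPM in untreated rat 2. CM rat 4 had the highest sum of all 22 rats, 448 CPM, with its median member at -0.04. The part of these cells in the shift was not tested.

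Levels per transcript length differed widely between members. Rpl41, the smallest protein of the large subunit, was the most abundant at 7537 TPM on average over the 22 rats. It was followed by Rps29 of the small subunit at 4941 TPM, the P stalk protein Rplp1 at 3943 TPM, Rpl13a at 3677 TPM and Rpl35 at 3358 TPM. The lowest 5 were Rpl10a at 3.46 TPM, Rpl8 at 7.01 TPM, Rpl38 at 57.2 TPM, Rpl9 at 137 TPM and Rps27l at 156 TPM. Rpl10a was under 1 count in 15 of the 22 rats, and Rpl8 and Rpl38 in 6 each. The counts of these 3 genes and of Rpl9 were fractional, so their averages are uncertain as levels of the mRNA. Rpl41 averaged 7501 TPM in untreated rats (SD 1093, n = 6) and 8012 TPM in the i.v. ASC group (SD 1151, n = 6), and the difference was smaller than the spread in either group. Rplp0, the scaffold of the P stalk, had 2435 TPM and the other 2 stalk proteins 3943 (Rplp1) and 1251 TPM (Rplp2).

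The lowest 4 of these, Rpl10a, Rpl8, Rpl38 and Rpl9, are core proteins of the large subunit and not paralogs. The only paralog among the members, Rps27l, a p53-responsive copy of Rps27, came next in the order and had 618 to 989 estimated counts, all whole, and a within-group SD of 0.21 log2 units. Untreated rats averaged 56.2 CPM (SD 7.18, n = 6), the i.p. ASC group 59.8 CPM (SD 8.38, n = 6), the i.v. ASC group 62.9 CPM (SD 12.2, n = 6) and the CM group 55.01 CPM (SD 6.47, n = 4). It reached 5.37% of the TPM of Rps27, and none of its 3 differences passed edgeR's quasi-likelihood test (adjusted p-values of 0.856, 0.571 and 0.988 with Benjamini-Hochberg adjustment). In each of the 3 comparisons given below, the 4 members with the largest fold changes were core genes with fractional counts.

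Split counts can be seen in the deposited values. The pseudo-aligner divides a read that fits several genes between them, which leaves a fractional estimated count. With a tolerance of 0.001, 25 of the 76 members (32.9%) had a fractional count in at least 1 rat, against 21.3% of the 12867 genes tested. In 15 or more rats this held for 17 members (22.4%), against 15.5% of genes tested. Rpl10a was fractional in all 7 rats in which it was above 0, Rpl38 in 16 rats, Rpl8 in 21, and Rpl9, Rps20, Rps13, Rpl7a, Rpl37a and Rpl13 in all 22.

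For a few members the gene on the other side of the split could be found. Rats in which a member had one of certain simple fractions, though not of all of them, were set aside, which left enough rats for 18 members. For these, genes were sought whose count added up to a whole number with the member's in every rat left (tolerance 0.02). Exactly 1 such gene was found for 3 members. Rpl28 was completed by its numbered copy Rpl28l1 in 19 of 19 rats examined, Rpl36a by Rpl36al1 in 4 of 4, and Rpl37a in 14 of 14 by the gene with identifier 100361520, which matched no symbol. The 4 rats of Rpl36a all had the same fraction (counts of 5076.6, 5448.6, 4046.6 and 3845.6), so they are 1 repeated match and not 4 distinct ones. For Rps26 several genes met the condition. For the other 14, among them Rpl10a, Rpl8, Rpl38, Rpl9 and Rps20, no gene did.

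Rpl37a, a zinc finger protein of the large subunit, could be read alone and together with the gene it shares counts with. Its own level ran from 183 to 284 CPM in untreated rats (median 259), from 244 to 383 CPM after i.p. ASC (median 308) and from 193 to 390 CPM after i.v. ASC (median 313). In the CM rats it was 358, 264, 316 and 239 CPM. All groups overlapped. The edgeR log2 fold change was 0.31 ± 0.16 (SE) after i.p. ASC, 0.30 ± 0.16 after i.v. ASC and 0.25 ± 0.18 after CM, with adjusted p-values of 0.771, 0.523 and 0.808 from the quasi-likelihood test with Benjamini-Hochberg adjustment. The CM value was 0.13 without CM rat 1 and 0.34 without CM rat 4. The sum of Rpl37a and the gene that completes it averaged 620 CPM in the untreated group (SD 106, n = 6), 632 CPM after i.p. ASC (SD 115, n = 6), 703 CPM after i.v. ASC (SD 130, n = 6) and 626 CPM after CM (SD 35.8, n = 4). The log2 ratios of these means were 0.03, 0.18 and 0.01, and the within-group SD on the log2 scale was 0.23 for the sum against 0.30 for Rpl37a alone.

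**Figure D2:**
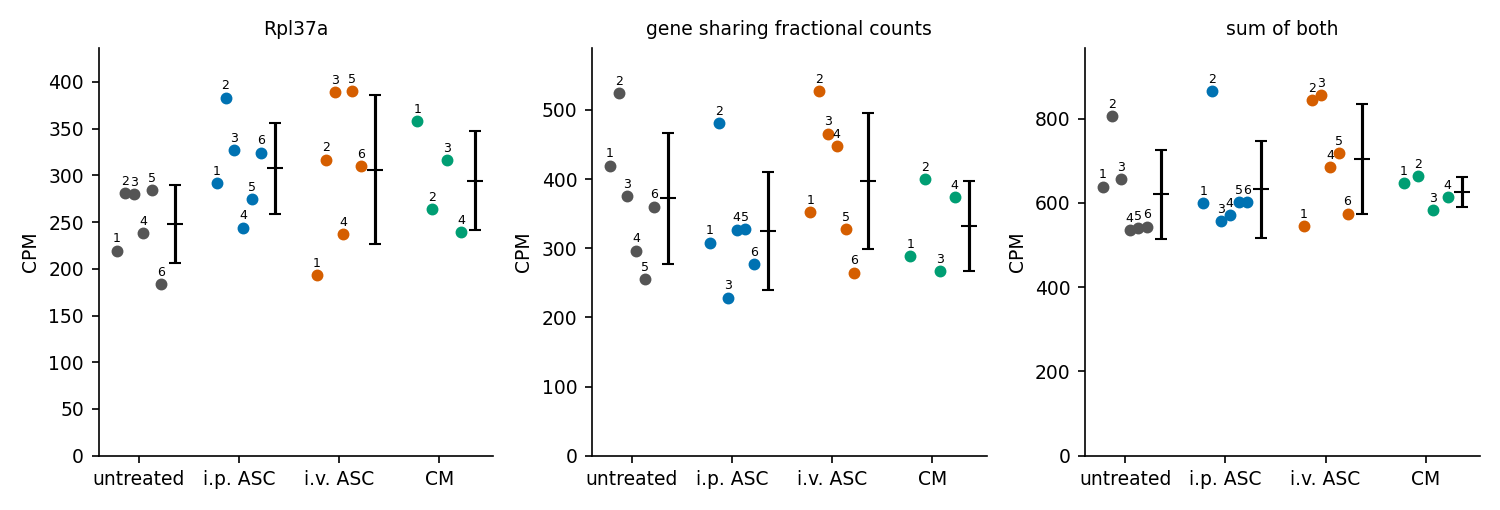
CPM of Rpl37a, of the gene (identifier 100361520) whose fractional counts complete those of Rpl37a, and of their sum. Points are rats with their replicate number, and bars give the mean ± SD. The sum had group means of 620 (untreated), 632 (i.p. ASC), 703 (i.v. ASC) and 626 CPM (CM).

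The members with low or split counts were far more variable than the rest. The within-group SD of log2 CPM was 2.51 for Rpl8, 2.23 for Rpl38 and 2.20 for Rpl10a. The other 2703 genes tested with a mean under 100 counts had a median SD of 0.48. Counting error alone, at these mean counts, amounts to 0.22 log2 units for Rpl8, 0.15 for Rpl38 and 0.33 for Rpl10a. Rpl9 and Rps20 varied by 0.90 and 0.75 at mean counts of 669 and 1938, where counting error is 0.06 and 0.03. The 51 members with whole counts had within-group SDs between 0.11 and 0.31.

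**Figure D3:**
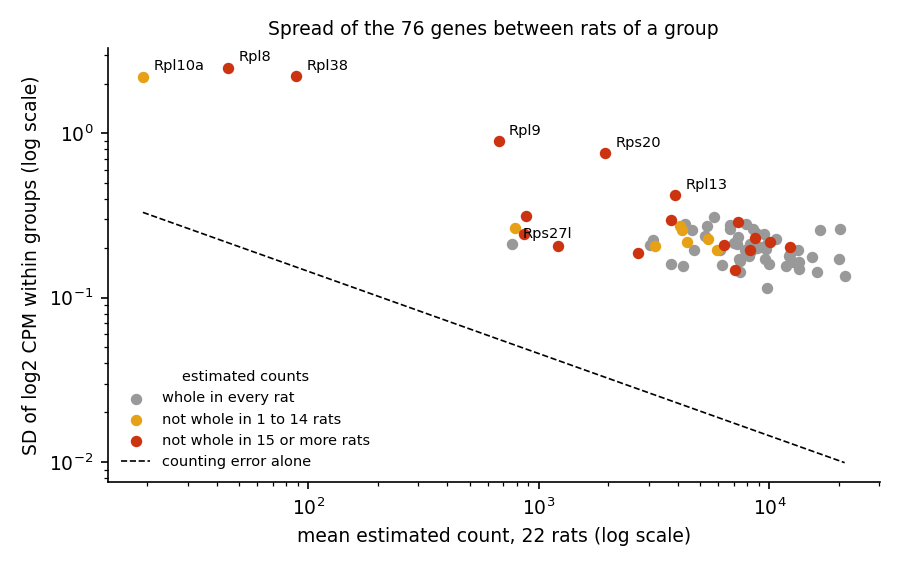
SD of log2 CPM within groups against the mean estimated count of each of the 76 genes, both on log axes. Colours mark in how many rats the estimated count was not whole, and the dashed line is the SD that counting error alone gives. Rpl10a, Rpl8, Rpl38, Rpl9, Rps20 and Rpl13 lie above the band of the other members.

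Rpl38, a small surface protein of the large subunit, gave the largest fold change of any member. Its estimated count in untreated rats ran from 73.7 to 225 with a median of 180. After i.p. ASC it was 71.6 and 68.0 in rats 1 and 2 and under 1 in the other 4 rats. After i.v. ASC it ran from 0 to 160 with a median of 73.9, and in the CM rats it was 139, 50.9, 108 and under 1. The counts thus did not grade down but stood either at 50 or more or at about 0, and in CPM the i.p. ASC group overlapped the untreated group only through rat 1 with 5.71 CPM, beside 5.57 CPM in untreated rat 5. The log2 fold change after i.p. ASC was -2.71 ± 0.99 (SE) with an unadjusted p of 0.012, and it did not pass after adjustment (edgeR quasi-likelihood test, Benjamini-Hochberg adjusted p = 0.771). After i.v. ASC and CM it was -0.88 ± 0.90 and -1.08 ± 1.03 (adjusted p-values of 0.671 and 0.876 from the same edgeR test). With 1 rat left out the 3 values ran from -3.49 to -2.43, from -1.18 to -0.61 and, after CM, from -1.62 (without CM rat 1) to -0.67 (without CM rat 4).

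Rpl10a, a protein of the large subunit, had a count above 0 in 7 of the 22 rats. It was 167 in untreated rat 1 and 0 in the other 5 untreated rats. After i.p. ASC it was 45.1 in rat 1 and 0 in the other 5 rats, and after i.v. ASC 38.5 in rat 1, 20.1 in rat 4 and 0 in the other 4 rats. The CM rats had 107, 21.2, 0 and 21.9. A single rat therefore held all of the summed CPM of the untreated group, and likewise of the i.p. ASC group. The fitted log2 fold changes of -1.65 ± 1.55 (SE), -1.32 ± 1.501 and 0.67 ± 1.4996 after i.p. ASC, i.v. ASC and CM rest on untreated rat 1: without it the i.p. ASC and i.v. ASC values turned to 5.96 and 6.29, against a group entirely at 0, where the size of a fitted value depends on the prior count and is no bound.

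Rpl8, a protein near the peptidyl transferase centre, spread just as widely within each group. Untreated rats ran from 0.00982 to 100 estimated counts with a median of 32.4. After i.p. ASC the range was 0.265 to 139 with a median of 49.2, and after i.v. ASC 0.000287 to 80.3 with a median of 25.6. The CM rats had 120, 53.3, 37.3 and 0.0187. Every group held a rat under 1 count and a rat above 80. The log2 fold changes were 0.61 ± 1.08 (SE), -0.16 ± 1.10 and 0.52 ± 1.20, none past edgeR's quasi-likelihood test (Benjamini-Hochberg adjusted p-values of 0.894, 0.960 and 0.971). The i.p. ASC value ran from 0.045 without i.p. ASC rat 3 to 1.18 without untreated rat 3.

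Rpl9, of the large subunit, and Rps20, of the small subunit, were never near 0 but varied widely. Rpl9 ran from 333 to 1667 estimated counts in untreated rats with a median of 739, from 256 to 1368 after i.p. ASC with a median of 483 and from 131 to 1239 after i.v. ASC with a median of 651. The CM rats had 254, 350, 557 and 671. The 4 groups overlapped, and the lowest value was that of i.v. ASC rat 6. Its log2 fold changes were -0.52 ± 0.46 (SE), -0.33 ± 0.46 and -0.87 ± 0.53, the last with the smallest unadjusted p of any member after CM (0.113, adjusted p = 0.741 in edgeR). With 1 rat left out they ran from -0.96 (without i.p. ASC rat 4) to -0.29 (without untreated rat 2), from -0.53 (without i.v. ASC rat 4) to -0.11 (without untreated rat 2) and from -1.13 to -0.65. Rps20 ran from 1217 to 2981 counts in untreated rats with a median of 2326, from 936 to 2137 after i.p. ASC with a median of 1626 and from 305 to 3355 after i.v. ASC with a median of 1981, and the CM rats had 2043, 1728, 1477 and 1744. Its lowest value was again that of i.v. ASC rat 6, and its log2 fold changes were -0.44 ± 0.35, -0.04 ± 0.35 and -0.29 ± 0.39. With 1 rat left out the CM value of Rps20 ran from -0.41 to -0.18.

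**Figure D4:**
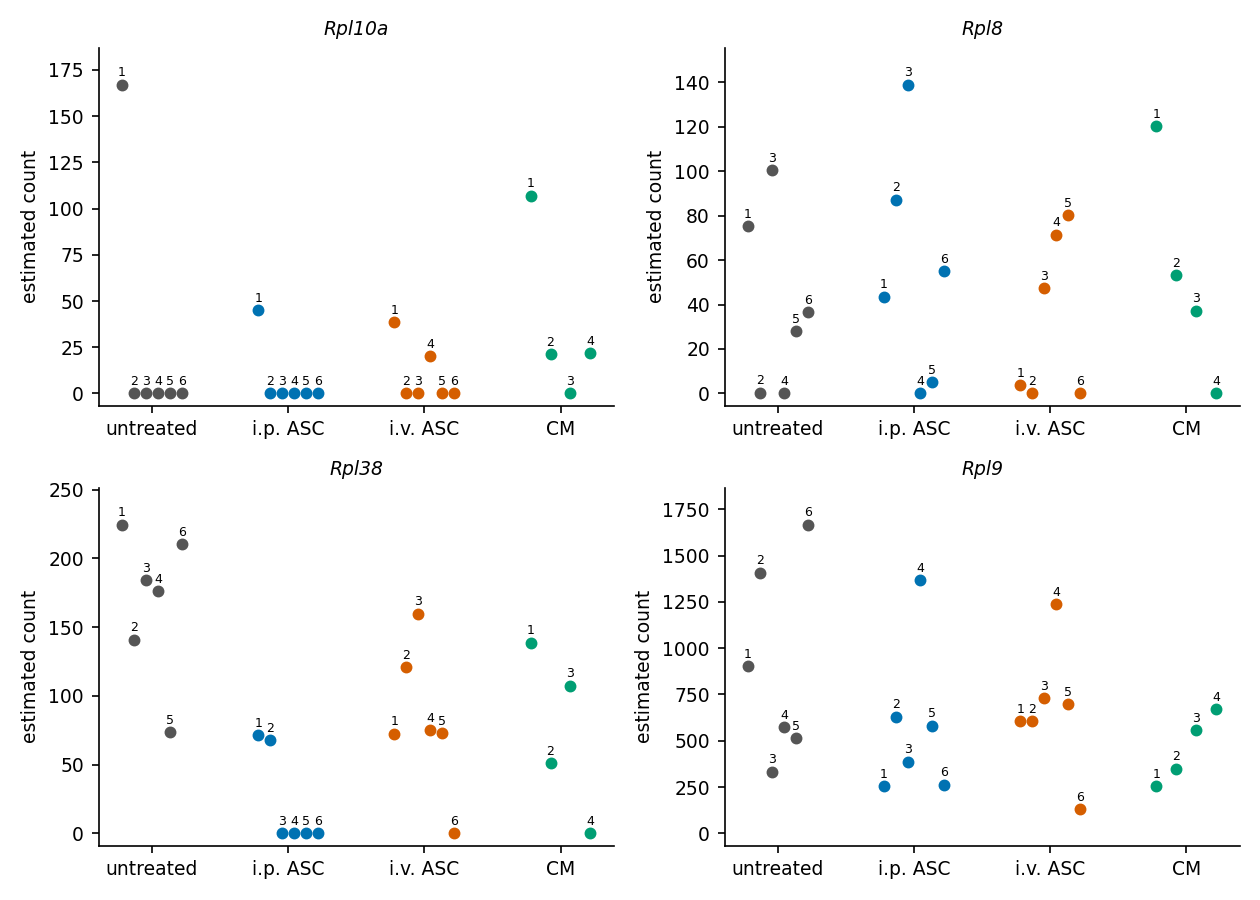
Estimated counts of Rpl10a, Rpl8, Rpl38 and Rpl9 in every rat on linear axes, by group, with the replicate number beside each point. Rpl10a was above 0 in 7 rats, and Rpl38 was under 1 in 4 of 6 i.p. ASC rats and in none of the untreated rats.

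The comparisons of each treatment with the same 6 untreated rats asked whether the block or single members changed. After i.p. ASC, edgeR's quasi-likelihood test called none of the 76 members, nor any of the 12867 genes tested (0.0%) at a Benjamini-Hochberg adjusted p below 0.05, and DESeq2 called 0 members. Below an unadjusted p of 0.05 there were 2 members, Rpl38 and Rpl7a, both lower, beside 3.89% of all genes in either direction and 2.14% in the lower one. No member had non-overlapping groups, against 0.14% of genes tested (0.0155% higher and 0.124% lower). The median log2 fold change of the members was 0.02 and that of all genes -0.01, and 57 of 76 members lay above 0, against 46.2% of genes. That direction hung on single rats: without i.p. ASC rat 2 the count above 0 was 5 and the median -0.07, and without untreated rats 4, 5 or 6 the count was 33, 27 or 32.

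Rpl7a, a protein of the large subunit, was the other member with a low unadjusted p after i.p. ASC. Untreated rats ran from 83.1 to 112 CPM with a median of 95.8, and i.p. ASC rats from 62.5 to 109 CPM with a median of 75.8. The groups overlapped only through i.p. ASC rat 4, at 109 CPM, since the other 5 i.p. ASC rats lay between 62.5 and 79.1 CPM, below every untreated rat. The log2 fold change was -0.31 ± 0.12 (SE) with an unadjusted p of 0.0165 and an edgeR adjusted p of 0.771. After i.v. ASC and CM it was -0.13 ± 0.12 and 0.13 ± 0.13. Its counts were fractional in all 22 rats.

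The mean and the median of the members went apart after i.p. ASC. The mean log2 fold change was -0.04, below 0, although 57 of 76 members lay above 0. The mean itself rested on single rats, running from -0.13 without i.p. ASC rat 2 to 0.08 without untreated rat 1. Rpl38 alone contributed -0.036 to that mean, and without it the mean of the other 75 was -0.0007. Without the 3 members under 100 counts it was 0.01, and over the 51 members with whole counts it was 0.03. The median stayed at 0.02 under each of these omissions of members. Rpl10a contributed -0.0215, so both of these low-count members lowered the mean while the middle of the list stayed in place.

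After i.v. ASC the block lay highest against untreated rats, with no member called by edgeR, none by DESeq2, and none below an unadjusted p of 0.05, where 8.81% of all genes lay. No member had non-overlapping groups (0.179% of genes tested, 0.0233% higher and 0.155% lower), and DESeq2 called 0.183% of its genes. The median log2 fold change of the members was 0.15 against -0.01 over all genes, with a median SE of 0.12, and 68 of 76 members lay above 0, against 47.5% of genes. With an offset for transcript length, described below, the median was 0.03. All 51 members with whole counts were above 0, between 0.06 and 0.26, but they come from the same rats and move together, so their number is not independent evidence. The 8 members below 0 included Rpl9 (-0.33) and the 3 members under 100 counts, Rpl10a (-1.32), Rpl38 (-0.88) and Rpl8 (-0.16). The mean over all members was 0.10, and without these 3 it was 0.14. With 1 rat left out it ran from 0.05 (without i.v. ASC rat 2) to 0.22 (without untreated rat 1). Without the 4 i.v. ASC rats with urothelium markers the median was 0.19 over the remaining 2 rats, 69 members lay above 0, and the mean was -0.07. Leaving out i.v. ASC rat 2 lowered the median to 0.08. The 4 principal cell markers of the collecting duct, led by Aqp2, all lay above 0 after i.v. ASC (median 0.37, 2 at an unadjusted p below 0.05), with sums of 1114 to 2479 CPM against 761 to 1632 CPM in untreated rats. The 4 podocyte markers, led by Podxl, all lay below 0 (median -0.80, 2 at an unadjusted p below 0.05), with sums of 144 to 533 CPM against 338 to 679 CPM. These were not the only marker lists away from 0 after i.v. ASC. Medians were -1.07 for erythroid, -0.69 for distal convoluted tubule (2 genes tested) and -0.34 for endothelium markers. They were 0.35 for proximal tubule and 0.36 for thick ascending limb markers. The part of any of these cells in the level of the ribosomal protein genes was not tested.

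The members with the smallest unadjusted p after i.v. ASC were abundant genes with small differences. Rplp2 of the P stalk had 197 to 281 CPM in untreated rats (median 220) and 221 to 333 CPM after i.v. ASC (median 266). The ranges overlapped, with a log2 fold change of 0.24 ± 0.12 (SE), an unadjusted p of 0.0544 and an edgeR adjusted p of 0.523. Rpl21, of the large subunit, stood at 0.19 ± 0.10, Rpl18 at 0.20 ± 0.10, Rpl37a at 0.30 ± 0.16 and Rpl36 at 0.22 ± 0.12 on the log2 scale, all at the same adjusted p. Rps21 of the small subunit, among the 5 largest differences, stood at 0.26 ± 0.16. The other stalk proteins were at 0.16 ± 0.11 (Rplp1) and 0.09 ± 0.09 (Rplp0).

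After CM the members lay on both sides of 0. edgeR and DESeq2 called 0 members, where DESeq2 called 0.0262% of its genes. None had an unadjusted p below 0.05 (6.6% of all genes, 2.84% higher and 3.75% lower), and none had non-overlapping groups (1.42%, with 0.435% higher and 0.987% lower). The median log2 fold change was 0.01, that of all genes -0.00, and 48 of 76 members lay above 0 against 49.1% of genes. That count was 28 without CM rat 2 and 25, 24 or 28 without untreated rats 4, 5 or 6. Over all omissions of 1 rat it ran from 24 to 71. The largest differences were those of Rpl38 (-1.08), Rpl9 (-0.87), Rpl10a (0.67), Rpl8 (0.52) and Rps20 (-0.29), all 5 with fractional counts. Rpl10 (0.09 ± 0.08), which joins the large subunit late, and Rps10 (0.13 ± 0.12), of the small subunit, were among the 5 members with the smallest unadjusted p, at edgeR adjusted p-values of 0.869 and 0.871. The Rps10 value ran from 0.07 without CM rat 2 to 0.20 without untreated rat 2.

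**Figure D5:**
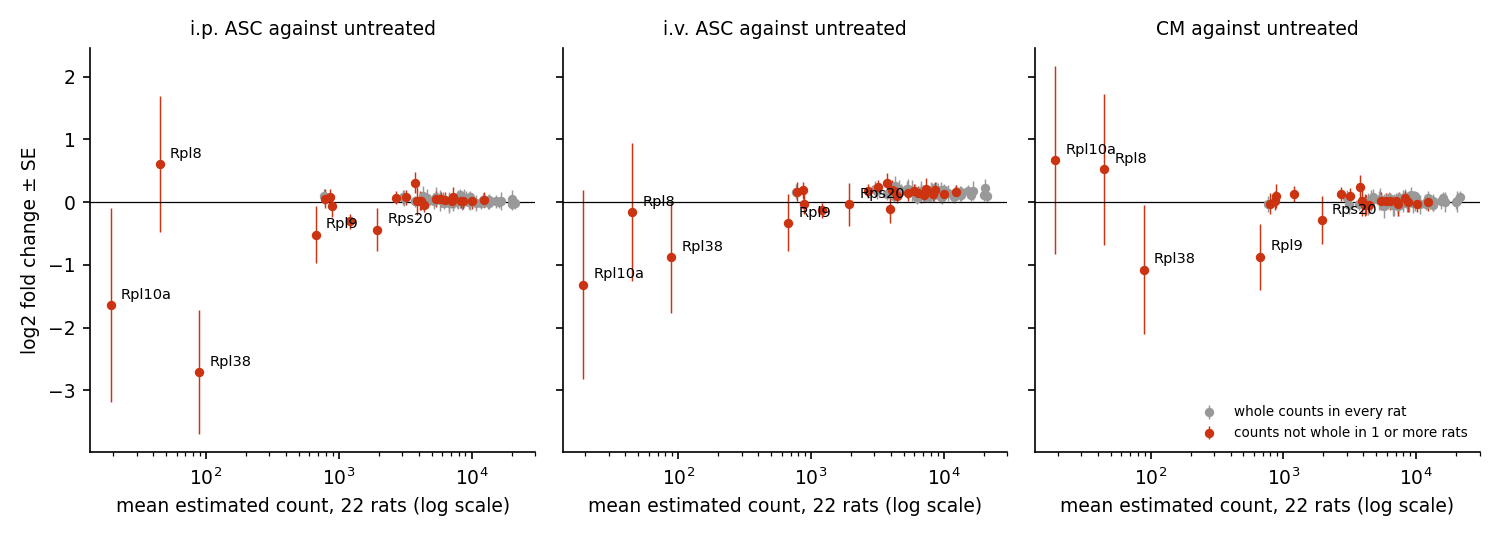
Log2 fold change (± SE) of each of the 76 genes against its mean estimated count (log axis) after i.p. ASC, i.v. ASC and CM, each against the same untreated rats. Red points are genes with fractional counts in 1 or more rats. Rpl38 (-2.71) and Rpl10a (-1.65) lie farthest from 0 after i.p. ASC, while genes with whole counts stay between -0.07 and 0.26 in all 3 comparisons.

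The subunits gave like medians. Large subunit members had median log2 fold changes of 0.02, 0.14 and 0.01 after i.p. ASC, i.v. ASC and CM, small subunit members 0.02, 0.15 and 0.00, and the 3 stalk proteins 0.02, 0.16 and 0.08. The whole-subunit means differed more, at -0.08 for the large and 0.01 for the small subunit after i.p. ASC, since Rpl38 and Rpl10a belong to the large one. The core genes outside the symbol rule behaved like the abundant members: Fau, a fusion of a ubiquitin-like protein and Rps30, stood at 0.08, 0.21 and 0.05, and Rack1, the scaffold at the head of the small subunit, at -0.01, 0.09 and -0.04, none with an edgeR adjusted p under 0.523.

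The paralogs outside the rule were lower than their parent genes. Rpl3l, the form of striated muscle, had 0 to 8 counts and 0.0213% of the TPM of Rpl3, and was too low to be tested. Rps4y2 had 1.56% of the TPM of Rps4x. Rpl22l1 had 18.9% of the TPM of Rpl22, with whole counts in every rat. Relative to the parent in the same rat it averaged 18.3% in the untreated group (SD 1.40, n = 6), 19.3% after i.p. ASC (SD 2.81, n = 6), 19.5% after i.v. ASC (SD 4.14, n = 6) and 18.5% after CM (SD 1.89, n = 4). None of these paralogs was called. The numbered copy Rpl37l1, outside the rule, ran from 80.6 to 566 estimated counts, fractional in all 22 rats, with a within-group SD of 0.87, close to that of Rpl9. It had log2 fold changes of -0.72, 0.17 and -0.45, the first with an edgeR adjusted p of 0.771.

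Other genes of translation were read from lists beside the ribosomal ones. The mitochondrial ribosome, which translates the few proteins encoded in mitochondrial DNA, had 70 genes tested. After i.p. ASC, i.v. ASC and CM 68, 67 and 57 of them lay above 0 (46.2%, 47.5% and 49.1% of all genes), with medians of 0.15, 0.16 and 0.08. Of these, 4, 11 and 1 were higher at an unadjusted p below 0.05, where 1.75%, 3.81% and 2.84% of all genes lay, and none was called by edgeR. Genes of this list come from the same rats, so their number is not independent evidence. Their mean log2 CPM was 5.68 in i.p. ASC rat 1, 5.62 in i.p. ASC rat 3, 5.59 in i.v. ASC rat 1 and 5.70 in CM rat 1, against 5.17 to 5.46 in untreated rats. In these 4 rats the mean log2 CPM of the proximal tubule markers was 9.23, 8.99, 9.30 and 8.95, against 7.16 to 8.50 in untreated rats, but the 2 measures did not move together in every rat. The mitochondrial ribosome list stood at 5.63, 5.54 and 5.50 in i.v. ASC rat 3, i.v. ASC rat 2 and i.p. ASC rat 2, also above the untreated rats, with tubule markers at 8.57, 7.89 and 7.97, and i.p. ASC rat 6 had 5.36 with tubule markers at 8.73. The part of these cells in the difference was not tested. Mrps34 of its small subunit averaged 42.6 CPM in the untreated group (SD 5.93, n = 6) and 60.6 CPM after i.v. ASC (SD 11.6, n = 6), a log2 fold change of 0.51 ± 0.16 (SE) with an edgeR adjusted p of 0.523. Mrpl27 of its large subunit stood at 0.36 ± 0.12 after i.v. ASC.

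The factors that work with the cytosolic ribosome differed little. Of 28 initiation factors tested 21, 24 and 16 lay above 0, with medians of 0.05, 0.08 and 0.01. Of all genes 46.2%, 47.5% and 49.1% lay above 0, and the genes of each list come from the same rats. Eif3b, a subunit of the initiation factor that binds the small subunit, stood at 0.18 ± 0.07 (SE) after i.p. ASC, and Eif1, which guards start codon choice, stood at 0.15 ± 0.06 after i.v. ASC. The 9 elongation genes had medians of 0.04, 0.12 and 0.05, with Eif5a at 0.19 ± 0.09 after i.v. ASC and the muscle and nerve form Eef1a2, at 0.889 CPM after CM and 1.60 CPM in untreated rats, at -0.84 ± 0.36. The 39 genes of ribosome assembly had medians of 0.03, 0.05 and 0.00, with Bysl at 0.25 ± 0.09 and Gar1 at 0.21 ± 0.08 after i.v. ASC. Of the 16 regulators of ribosomal protein synthesis 4, 2 and 10 lay above 0. Tsc2 stood at -0.15 ± 0.07, -0.14 ± 0.07 and -0.06 ± 0.08 after i.p. ASC, i.v. ASC and CM. Tsc1 stood at -0.20 ± 0.15, -0.33 ± 0.15 and -0.20 ± 0.17. Both are brakes on mTORC1, whose activity was not measured here. None of these genes was called by edgeR in any of the 3 comparisons.

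Transcript length set the members apart from other genes. Their relative length, taken from the ratio of estimated counts to TPM, had a median of 0.188 against 1.005 for all genes tested, and all 76 were shorter than the median gene. With an offset that removes each rat's trend on length, the median log2 fold change of the members was -0.03 after i.p. ASC, 0.03 after i.v. ASC and 0.02 after CM, with 15, 61 and 49 members above 0. On the log2(TPM + 1) scale the members' medians were -0.08, 0.02 and -0.04, where the median of all genes was itself -0.10, -0.12 and -0.07. Relative to all genes on that scale the members stood at 0.02, 0.14 and 0.02. The sign of the members' median after i.p. ASC thus depended on the scaling, and the 0.15 after i.v. ASC became 0.03 with the length offset.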

How the data were processed

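Kidney RNA of 22 rats in 4 groups was analysed, with groups taken from the sample labels. The members and lists were chosen with earlier results of these data known. According to the submitters' processing notes the authors used Trim Galore 0.6.4, kallisto (listed as version 0.4.6) and the build rn6. They deposited an estimated count per Entrez gene, not normalized, and a TPM value, scaled by the authors for transcript length and total, which summed to between 959754 and 968550 per rat. Of 17334 identifiers 17179 were matched to symbols through the RefSeq table of GRCr8, used for names only.

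Of all estimated counts 13.2% were not whole, and counts were rounded for testing. Genes sharing reads with pseudogenes or copies are uncertain. The main test was edgeR 4.0.16 in R 4.3.3 (TMM, filterByExpr, quasi-likelihood, 4 groups in one fit, Benjamini-Hochberg over 12867 genes, threshold 0.05), which all 76 members entered. Log2 CPM used a prior count of 2. The procedure was tested on simulated data. Alternatives were DESeq2 1.42.0, RLE size factors, a length-trend offset (lowess span 0.3), other filters, 2 groups only, a fit with 1 surrogate variable from sva 3.50.0, a trend fit of log2(TPM + 1) or log2(TPM + 0.1) by limma 3.58.1, other membership and the omission of each rat. The setting without the i.v. ASC rats with urothelium markers, the whole-count subset and the search for genes that complete a member's fractional counts were chosen after seeing the data.

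Named were members past the threshold, the 5 with the smallest unadjusted p and the 5 with the largest absolute log2 fold change per comparison, the 5 most and 5 least abundant, paralog pairs, stalk proteins, Fau and Rack1, the 2 genes of smallest unadjusted p per translation list, and marker lists by summed level. One item under this rule is not reported here. Rps13, Rpl13, Rpl28, Rpl36a, Rps26, Rpl28l1, Rpl36al1 and Rpl37l1 were named after their values were seen. All pairs of rats differed by more than sampling noise (chi-square per gene of 7.51 or more). Nothing says whether rats share a litter or a sequencing run, so p-values measure only the spread between these rats.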

Additional observations from a re-analysis of the deposited data

Results flagged for a closer look

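A rat was taken up here where its distance to the nearest other rat of its group was large against the group's range. In 124 groups of values examined this happened 24 times, and chance alone does so in about 1 of 20 groups. The values below are log2 CPM unless another unit is given.

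Most of them concern i.p. ASC rat 2, which stood above the other 5 i.p. ASC rats. Its ribosomal protein genes took 17.26% of TPM against 12.1% to 13.88% in the others, and their mean was 8.902 against 8.298 to 8.514. Among large subunit members it had 10.83 for Rpl13a, 9.785 for Rpl21, 8.327 for Rpl22, 9.772 for Rpl35, 8.255 for Rpl36 and 11.04 for Rpl41. The stalk proteins were at 10.88 (Rplp0), 10.25 (Rplp1) and 8.324 (Rplp2). Small subunit members were at 8.051 (Rps10), 8.954 (Rps21), 9.037 (Rps27) and 9.799 (Rps29), and the paralog Rps27l at 6.244. Outside the symbol rule, Fau had 9.957. These genes move as a block, so they are 1 observation of 1 rat and not many. In the same rat the 5 macrophage markers summed to 432 CPM against 200.2 to 294 CPM in the other i.p. ASC rats, and the 4 T lymphocyte markers, led by Cd3e, to 92.0 against 35.4 to 64.4 CPM, and their part in the level of the block was not tested.

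The others concern members with fractional counts. Rpl10a had 3.471 in untreated rat 1 and 1.897 in i.p. ASC rat 1, against -2.713, the value of a count of 0, in all other rats of both groups. Rpl38 had 2.516 in untreated rat 5, against 3.501 or more in the other untreated rats, and -2.713 in i.v. ASC rat 6. The same i.v. ASC rat 6 had 3.351 for Rpl9, against 5.62 or more in the other i.v. ASC rats, and 4.558 for Rps20, against 7.09 or more. Rpl7a had 6.93 in i.v. ASC rat 5 while the 5 remaining rats given cells i.v. lay between 6.32 and 6.42.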

How the results depend on the processing

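The number of members called stayed at 0 in all 3 comparisons under every alternative run. Over all genes, DESeq2 called 28 after i.v. ASC and 4 after CM, and the fit with only 2 groups called 1 after CM. Leaving out 1 rat gave 0 to 14 genes called after i.v. ASC, 11 of them without i.v. ASC rat 2 and 14 without rat 6, and 0 after i.p. ASC and CM; the cause was not tested. When 1 rat was left out, the median over members ran from -0.07 to 0.10 after i.p. ASC and from 0.08 to 0.22 after i.v. ASC. After CM it ran from -0.03 to 0.08, so its sign is not fixed after i.p. ASC and CM. Other settings went beyond these ranges. The length offset lowered the i.v. ASC median below its range, and the log2(TPM + 1) scale lowered the medians of all 3 comparisons below theirs.

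Of the fold changes that the naming rule picked in each comparison, those of Rpl10a and Rpl8 turned their sign, and the cause was not tested. Smaller differences printed beside them also turned when 1 rat was left out: after i.v. ASC, Rps20 ran from -0.24 to 0.19, the latter without i.v. ASC rat 6, and Rpl8 from -0.65 to 0.42. For Rpl10a the i.v. ASC value became 0.072 on log2(TPM + 1) and 0.55 on log2(TPM + 0.1), and the CM value -1.26 with 1 surrogate variable. When 1 rat was left out, Rpl10a ran from -7.63 to 5.96 after i.p. ASC, from -2.63 to 6.29 after i.v. ASC and from -0.74 to 8.28 after CM; a group then entirely at 0 leaves no bound. Rpl8 became -0.32 after i.p. ASC and -0.71 after CM with 1 surrogate variable, and ran from -0.32 to 1.09 after CM when 1 rat was left out. Without the 3 low-count members the mean log2 CPM over members was 8.84 and not 8.52 in untreated rats. Settings that require 10 counts in every rat hold no value for Rpl10a, Rpl8 and Rpl38. No paired analysis was possible because rats of different groups are different animals and a replicate number only names a rat. Counting error was largest for the 3 members under 100 counts, at 0.15 to 0.33 log2 units. Their within-group SDs, of 2.20 to 2.51, were far larger.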
